A study of Mus musculus with 6 samples.

Results

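The collagen chains analysed were the 44 rows of the FPKM table whose symbol reads Col, a number, the letter a and a number, of 23997 genes in all. Collagens are the main fibrous proteins of the arterial wall. Each molecule is a triple helix of 3 chains, built on a repeat of glycine and a pair of other residues, so that the coding sequence of a helix runs in triplets of codons that start with a glycine codon. Fibrillar chains form the banded fibrils that give a vessel its tensile strength, and basement membrane chains form the sheet beneath the endothelium and around each smooth muscle cell (SMC). FACIT chains (fibril-associated collagens with interrupted triple helices) sit on the surface of fibrils, network chains form beaded filaments or hexagonal lattices, and transmembrane chains span the cell membrane. In the ductus arteriosus (DA), the fetal artery between the pulmonary artery and the aorta, the wall between the SMCs is remodeled before birth. The classes held 11 fibrillar, 8 basement membrane, 9 FACIT, 10 network and 4 transmembrane chains, and *Col26a1* and *Col28a1* were kept apart as 2 other chains.

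The libraries were bulk RNA-Seq of DA taken from C57BL/6 mouse embryos at E17.5. FPKM is the number of fragments of a gene, divided by the length of its transcript and by the fragments mapped in that library, so that levels can be compared between genes. In 3 libraries, called WT here, the embryos were wild type, and in the 3 called KO they carried the genotype Prdm6f/f; SM22-Cre, in which the SM22 promoter drives Cre recombinase in SMCs and so is meant to delete the floxed gene there and not in the other cells of the wall. Each group has a library 0, a library 1 and a library 2, and values are given in that order. Neither the labels nor the methods say whether a library held 1 embryo or several, or whether WT embryos carried floxed alleles or Cre, so the p values measure only the spread between these libraries. The comparison asked how the transcripts of the DA differ when *Prdm6*, a histone methyltransferase gene of SMCs, is deleted in SMCs.

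Read counts were not used here, so the total depth is unknown. Relative to WT library 1, the most common ratio between low FPKM values of the same genes gave depths of 0.933 to 1.2. For WT library 2 it rested on 127 genes. The upper quartiles of FPKM were close, from 10.4 to 10.8. Summed FPKM ran from 412183 in WT library 1 to 818503 in KO library 2, and genes listed at 0 from 8338 in KO library 2 to 11886 in WT library 2. On log2(FPKM + 0.1), WT library 2 correlated with the others at 0.674 to 0.726, and the others among themselves at 0.755 to 0.852. An exact 0 can be a failed estimate, since 34 to 61 of 3506 genes whose mean FPKM was 20 or more were listed at 0 in any one library. The targeted gene, *Prdm6*, had 41.7, 48.4 and 19.8 FPKM in WT and 48.6, 27.1 and 15.4 FPKM in KO, which does not check the labels, because the floxed part of the gene is not stated in the sources used here. KO library 0 held both *Xist*, the transcript of the inactive X chromosome, at 81.0 FPKM, and the Y-linked *Ddx3y* at 26.4 FPKM. WT library 0 and KO library 1 had *Xist* at 67.0 and 82.8 FPKM and *Ddx3y* at 0 and 0.383 FPKM. WT library 1, WT library 2 and KO library 2 had *Ddx3y* at 20.09 FPKM or more and *Xist* between 0.0431 and 0.0530 FPKM. The groups were thus not matched in these transcripts, and the part of sex in the collagen values was not tested. WT library 1 and KO library 2 had the highest summed FPKM of 12 heart muscle markers, 1447 and 1510, against 140 to 652 in the other 4 libraries. The summed FPKM of 10 smooth muscle markers, among them *Acta2* and *Myh11*, was 5855, 2920 and 2537 in WT and 2439, 1843 and 936 in KO. All 10 were detected in every library, and 10 of 10 had a log2 fold change below 0. Their part in the collagen values was not tested. In bulk tissue, fewer cells of a type and less RNA per cell cannot be told apart.

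The classes differ in how long the helix repeat goes on unbroken. Coding sequence from GENCODE vM21 transcripts on GRCm38 is therefore shown for the chains on which the results turn. Each line holds 15 codons from the first codon of the longest run of glycine triplets in that chain, with the first 2 bases of each glycine codon in capitals. Fibrillar *Col1a1*, network *Col6a1* and *Col8a1*, FACIT *Col12a1*, basement membrane *Col4a1* and fibrillar *Col24a1* are shown.

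Col1a1: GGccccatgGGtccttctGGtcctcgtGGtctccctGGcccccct

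Col24a1: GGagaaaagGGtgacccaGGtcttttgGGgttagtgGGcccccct

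Col4a1: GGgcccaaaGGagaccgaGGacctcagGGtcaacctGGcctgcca

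Col12a1: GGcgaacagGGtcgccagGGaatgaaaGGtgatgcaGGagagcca

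Col6a1: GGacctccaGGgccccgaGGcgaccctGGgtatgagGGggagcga

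Col8a1: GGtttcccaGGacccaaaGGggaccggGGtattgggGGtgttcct

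The repeat is the same in each, and the classes differ in how long it goes on unbroken. The longest run held 216 to 344 triplets in the 11 fibrillar chains, with 338 in *Col1a1* and the shortest, 216 and 217, in *Col24a1* and *Col27a1*. In the 8 basement membrane chains the helix was broken into 13 to 27 runs, the longest of them 30 to 66 triplets. FACIT chains reached 32 to 113 triplets, network chains 37 to 87, transmembrane chains 40 to 55 and the 2 other chains 23 to 28. *Col12a1* was the longest of the 44 chains, with 3065 coding codons, and only 8.12% of its codons lay in such runs. *Col8a1*, at 744 codons, had 60.1% of its codons in runs.

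Collagen transcripts covered a wide range of levels in the DA. Of the 44 chains, 36 had a mean FPKM of at least 1 over the 6 libraries and were tested, 12 reached 100 and 2 reached 1000. The most abundant were *Col1a1*, *Col3a1* and *Col1a2*, which together made up 60.4%, 66.1% and 68.5% of the summed collagen FPKM in WT and 58.0%, 66.6% and 69.5% in KO. The 8 chains with a mean FPKM under 1 were *Col4a3*, *Col6a4*, *Col7a1*, *Col10a1*, *Col11a2*, *Col13a1*, *Col19a1* and *Col22a1*, and they were not tested. In all, 8 chains were listed at 0 in at least 1 library.

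**Figure D1:**
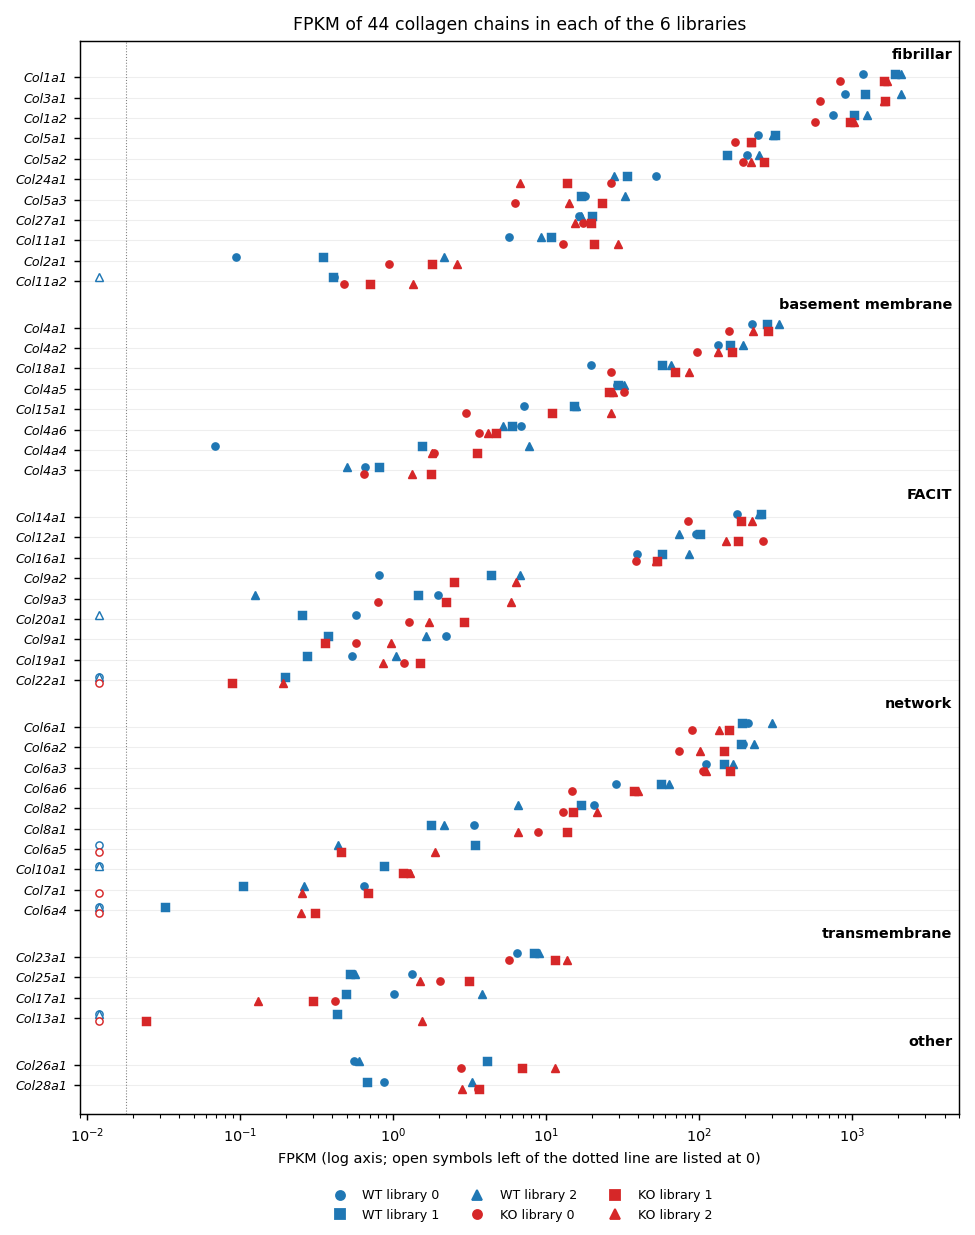
FPKM of each of the 44 collagen chains in each library, on a log axis, grouped by class and ordered by mean within a class, with circles, squares and triangles for libraries 0, 1 and 2, WT in blue and KO in red, and open symbols for values listed at 0. The levels run from 0 to 2080 FPKM, and the 3 KO symbols of Col8a1 and Col12a1 lie to the right of all 3 WT symbols.

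No collagen chain passed the adjusted threshold of 0.05. On log2(FPKM + 0.1), limma with Benjamini-Hochberg adjustment over the 12955 genes tested called 0 of 36 chains, beside 1 gene of all those tested (0.00772%), the ribosomal precursor *Rn45s*. At an unadjusted p under 0.05 there were 8 chains of 36 (22.2%), of which *Col8a1*, *Col11a1*, *Col12a1* and *Col26a1* were higher in KO and *Col5a1*, *Col6a1*, *Col6a2* and *Col24a1* were lower, beside 8.28% of all genes tested. The KO values lay beyond all WT values in 11 of the 36 chains (30.6%), 5 higher and 6 lower, beside 16.1% of all genes tested. The share of all genes was 3.31% for an unadjusted p under 0.05 with higher values in KO and 4.97% with lower values. For groups without overlap it was 8.21% in the higher and 7.84% in the lower direction.

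The chains as a whole did not move one way. The log2 fold change (KO minus WT) was above 0 in 15 chains and below 0 in 21, with a median of -0.16 beside 0.07 for all genes tested, and the median was 0.14 without KO library 0. Each chain whose groups did not overlap had p = 0.1 in a two-sided exact permutation test, the smallest value possible for 3 libraries against 3. Fold changes on this scale understate the change of chains with low FPKM.

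**Figure D2:**
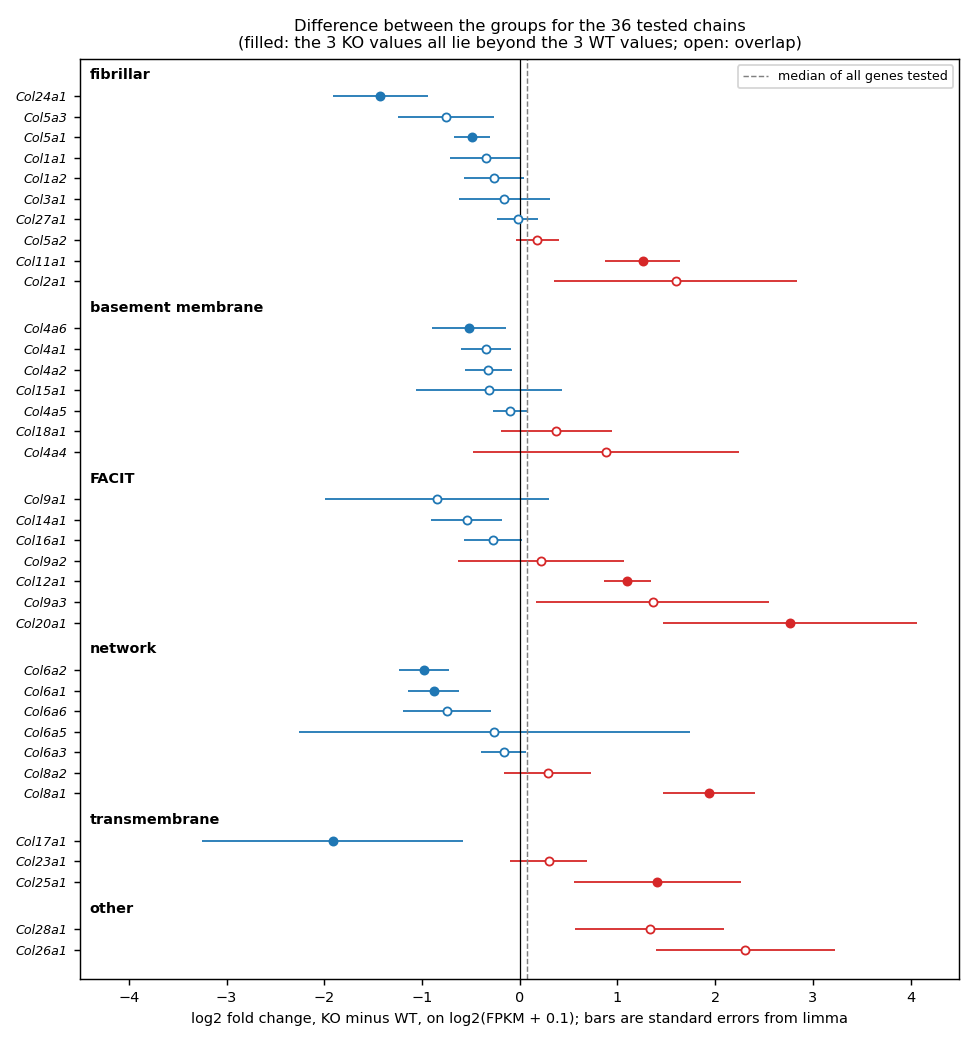
Log2 fold change (KO minus WT) of the 36 tested chains by class, with limma standard errors as bars, red above 0 and blue below 0, and filled symbols where all KO values lie beyond all WT values. The filled symbols number 5 on the right and 6 on the left, and the dashed line marks the median of all genes tested, 0.07.

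Among the fibrillar chains, the major ones overlapped between the groups and the differences without overlap were in the minor ones. *Col1a1*, which supplies most of the type I molecule, had 1173, 1892 and 2080 FPKM in WT and 829, 1597 and 1686 FPKM in KO, with a log2 fold change of -0.35 (SE 0.37, adjusted p = 0.773). Its partner chain *Col1a2* had 752, 1030 and 1246 FPKM in WT and 569, 963 and 1022 FPKM in KO, a log2 fold change of -0.26 (SE 0.31). *Col3a1*, the only chain of type III collagen, had 894, 1215 and 2074 FPKM in WT and 617, 1637 and 1610 FPKM in KO, a log2 fold change of -0.16 (SE 0.47). In all 3 of these chains the lowest value of each group was in its library 0, and the log2 fold change of *Col1a2* and *Col3a1* was 0.01 and 0.31 without KO library 0.

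Type V and type XI chains form the core on which type I fibrils grow. *Col5a1* had 240, 310 and 301 FPKM in WT and 172, 218 and 217 FPKM in KO, so that every KO value was below every WT value (log2 fold change -0.49, SE 0.18, unadjusted p = 0.0306, adjusted p = 0.586). Its partner *Col5a2* had 204, 152 and 244 FPKM in WT and 193, 264 and 216 FPKM in KO, which overlapped (log2 fold change 0.18, SE 0.22). *Col11a1* had 5.71, 10.7 and 9.20 FPKM in WT and 12.9, 20.6 and 29.5 FPKM in KO, every KO value above every WT value (log2 fold change 1.26, SE 0.38, unadjusted p = 0.0119, adjusted p = 0.540). Thus *Col5a1* and *Col11a1*, which can take the same place in a mixed fibril core, differed in opposite directions, with WT means of 284 ± 38.1 and 8.53 ± 2.55 FPKM (SD, n = 3) and KO means of 202 ± 26.7 and 21.0 ± 8.31 FPKM. The unadjusted p of *Col5a1* was under 0.05 in 11 of 17 alternative settings. It was 0.0974, 0.0713 and 0.0878 without WT library 1, WT library 2 or KO library 0, 0.0856 without the mean-variance trend and 0.195 after quantile normalization. That of *Col11a1* was under 0.05 in 15 of 17 and was 0.0554 without KO library 2.

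*Col24a1*, a fibrillar chain known from developing bone and cornea, had the largest negative difference of the class. It had 52.3, 33.5 and 27.6 FPKM in WT and 26.6, 13.6 and 6.76 FPKM in KO, with a log2 fold change of -1.43 (SE 0.49, unadjusted p = 0.0202, adjusted p = 0.552). The groups were separate by a narrow gap, since the lowest WT value was 27.6 and the highest KO value 26.6. The unadjusted p was under 0.05 in 11 of 17 alternative settings. It was 0.0809, 0.0501, 0.0596 and 0.0578 without WT library 0, WT library 1, KO library 1 or KO library 2, the last with a log2 fold change of -0.93, and 0.0859 without moderation. *Col27a1*, the fibrillar chain whose longest run of triplets was close to that of *Col24a1*, was level. It had 16.5, 19.8 and 16.8 FPKM in WT and 17.3, 19.7 and 15.4 FPKM in KO (log2 fold change -0.02).

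The cartilage fibril chains were low. *Col2a1*, the main fibrillar chain of cartilage, had 0.0935, 0.346 and 2.13 FPKM in WT and 0.935, 1.79 and 2.63 FPKM in KO, which overlapped. *Col11a2* had 0.410, 0.404 and 0 FPKM in WT and 0.476, 0.703 and 1.35 FPKM in KO, without overlap, but was under the filter and not tested. Beside these chains and *Col11a1*, the summed FPKM of 12 cartilage markers was 63.1, 53.3 and 67.6 in WT and 100, 117 and 67.4 in KO, which overlapped. Of these markers, *Matn1*, *Matn3*, *Snorc* and *Ucma* stayed at or below 0.5 FPKM in every library, whereas *Acan* lay between 18.4 and 44.8 FPKM and *Cytl1* between 6.75 and 62.7 FPKM, both with overlap. *Sox9*, which drives cartilage formation, had 9.97, 7.36 and 4.25 FPKM in WT and 1.32, 2.63 and 2.07 FPKM in KO, without overlap and opposite in direction to *Col11a1*. The part of cartilage markers in these values was not tested. *Col5a3*, a minor type V chain, ranged from 6.21 to 32.6 FPKM and overlapped.

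The main pair of basement membrane chains kept a nearly fixed ratio in every library. *Col4a1* and *Col4a2*, which assemble in a fixed ratio into the sheet found in all basement membranes, had 220, 275 and 333 FPKM and 133, 160 and 192 FPKM in WT. In KO they had 157, 281 and 223 FPKM and 95.8, 164 and 132 FPKM, with log2 fold changes of -0.34 (SE 0.26) and -0.32 (SE 0.24) that were within the spread between libraries. The ratio of *Col4a1* to *Col4a2* was 1.66, 1.72 and 1.74 in WT and 1.64, 1.71 and 1.69 in KO, the narrowest range of the 8 ratios computed. On chromosome 8 the pair lies head to head, *Col4a1* at 11198423 to 11312826 on the minus strand and *Col4a2* at 11312805 to 11449287 on the plus strand (GRCm38), and their annotated start sites are 21 bases apart.

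The other type IV chains come in similar pairs. *Col4a5* had 29.0, 29.5 and 32.4 FPKM in WT and 32.2, 25.7 and 27.2 FPKM in KO, the most even of the abundant basement membrane chains. Its neighbor on the X chromosome, *Col4a6*, which joins it in the basement membranes of smooth muscle, had 6.88, 5.94 and 5.18 FPKM in WT and 3.62, 4.68 and 4.15 FPKM in KO. These *Col4a6* values did not overlap, but the difference was small beside its error (log2 fold change -0.52, SE 0.37, adjusted p = 0.701). Both genes are X-linked, the groups were not matched in *Xist* and *Ddx3y*, and the part of sex in their values was not tested. *Col4a3*, which was not tested, and *Col4a4*, chains best known from the kidney glomerulus, stayed between 0.0681 and 7.72 FPKM and overlapped.

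*Col15a1* and *Col18a1* carry heparan or chondroitin sulfate chains and anchor basement membranes to the tissue around them. *Col18a1*, whose C-terminal fragment is endostatin, had 19.5, 56.6 and 65.1 FPKM in WT and 26.6, 68.9 and 85.5 FPKM in KO, with a log2 fold change of 0.38 (SE 0.56) that was -0.17 without WT library 0. Library 0 was the lowest of its group for *Col15a1* as well, and the groups overlapped, between 3.0 and 26.6 FPKM. Over the 7 tested basement membrane chains the median log2 fold change was -0.31, with 0 at an unadjusted p under 0.05, beside 8.28% of all genes tested.

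The FACIT class held the chain with the smallest p of all collagens. *Col12a1*, which decorates type I fibrils in tissues under load, had 95.1, 101 and 74.1 FPKM in WT and 262, 179 and 150 FPKM in KO. Every KO value was above every WT value, with means of 90.2 ± 14.3 and 197 ± 57.7 FPKM (SD, n = 3) and a log2 fold change of 1.10 (SE 0.24, unadjusted p = 0.00199, adjusted p = 0.414). The log2 fold change stayed between 0.88 and 1.28 when each library was left out in turn. *Col12a1* lies on chromosome 9 at 79598991 to 79718831 on the minus strand (GRCm38), where a gene annotated on the opposite strand, *4930562D21Rik*, overlaps it. The strand of the counting is not stated, so fragments of such a partner cannot be told apart. This limit holds for 18 of the 44 chains, among them *Col5a1* and *Col24a1*, which also overlap genes annotated on the opposite strand.

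The other abundant FACIT chains overlapped between the groups. *Col14a1*, the chain closest to *Col12a1* in build and also bound to type I fibrils, had 177, 251 and 246 FPKM in WT and 84.6, 187 and 222 FPKM in KO (log2 fold change -0.54, SE 0.36, adjusted p = 0.687). *Col16a1* had 39.0, 56.7 and 85.2 FPKM in WT and 38.8, 53.0 and 51.8 FPKM in KO (log2 fold change -0.27, SE 0.30). The ratio of *Col12a1* to *Col14a1* was 0.537, 0.404 and 0.302 in WT and 3.1, 0.961 and 0.676 in KO, without overlap. On the log2 scale the ratio was 1.65 higher in KO and 1.0 higher without KO library 0, where it was largest.

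Of the low FACIT chains, *Col20a1* had 0.572, 0.253 and 0 FPKM in WT and 1.27, 2.90 and 1.72 FPKM in KO (log2 fold change 2.77, SE 1.30, adjusted p = 0.615). Its groups did not overlap, and its mean level was near the filter. *Col9a1*, *Col9a2* and *Col9a3*, the chains of type IX collagen of cartilage, stayed between 0.126 and 6.73 FPKM and overlapped, with log2 fold changes of -0.85, 0.22 and 1.36 and standard errors of at least 0.85. The untested *Col19a1* and *Col22a1* overlapped too. The median log2 fold change of the 7 tested FACIT chains was 0.22, and it was -0.40 without WT library 0 and -0.22 without KO library 2.

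Type VI collagen, the beaded filament around SMCs and fibroblasts, was the network collagen with the highest level. *Col6a1* had 208, 190 and 297 FPKM in WT and 89.3, 156 and 135 FPKM in KO, every KO value below every WT value (log2 fold change -0.88, SE 0.26, unadjusted p = 0.0107, adjusted p = 0.535). *Col6a2* had 193, 187 and 229 FPKM in WT and 73.2, 144 and 101 FPKM in KO, again without overlap (log2 fold change -0.98, SE 0.25, unadjusted p = 0.0052, adjusted p = 0.468). The means of *Col6a1* and *Col6a2* were 232 ± 57.1 and 203 ± 22.8 FPKM (SD, n = 3) in WT and 127 ± 34.1 and 106 ± 35.8 FPKM in KO. The lowest value of both was in KO library 0, and without that library the log2 fold changes were -0.65 and -0.74, with unadjusted p values of 0.0358 and 0.0142.

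The other main chain of the filament overlapped between the groups. *Col6a3* had 111, 144 and 166 FPKM in WT and 106, 159 and 111 FPKM in KO (log2 fold change -0.17, SE 0.23). *Col6a6*, which can take the place of *Col6a3*, had 28.7, 56.1 and 63.5 FPKM in WT and 14.7, 37.3 and 39.8 FPKM in KO (log2 fold change -0.74, SE 0.45, adjusted p = 0.670). The ratio of *Col6a3* to *Col6a1* was 0.531, 0.756 and 0.559 in WT and 1.18, 1.02 and 0.824 in KO, so that every KO library had a higher ratio than every WT library. The ratio of *Col6a1* to *Col6a2*, in contrast, stayed between 1.02 and 1.33 in all 6 libraries. Of the 5 tested type VI chains, 5 had a log2 fold change below 0 (median -0.74), beside 5748 of all 12955 genes tested. Of these 5 chains, 2 did not overlap, beside 7.84% of all genes tested that were lower without overlap. The low *Col6a5*, between 0 and 3.42 FPKM, overlapped. The untested *Col6a4* stayed at or below 0.308 FPKM.

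*Col8a1* had the largest difference of the chains at an unadjusted p under 0.05 whose groups did not overlap. Type VIII collagen is a short-chain network collagen of vessel walls, known to be made by SMCs and endothelial cells and to be raised in injured arteries. Its FPKM was 3.39, 1.76 and 2.16 in WT and 8.84, 13.7 and 6.55 in KO, with means of 2.44 ± 0.852 and 9.71 ± 3.67 (SD, n = 3). The log2 fold change was 1.94 (SE 0.47, unadjusted p = 0.00379, adjusted p = 0.463) and stayed between 1.66 and 2.19 when each library was left out. *Col8a2*, its partner chain, had a higher level and overlapped, between 6.54 and 20.4 FPKM in WT and between 12.8 and 21.3 FPKM in KO (log2 fold change 0.29).

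*Col10a1*, the short-chain collagen of hypertrophic cartilage, had 0, 0.872 and 0 FPKM in WT and 1.26, 1.16 and 1.29 FPKM in KO. It was below the filter and not tested, and its gene lies on the opposite strand within the annotated span of *Nt5dc1*, so its fragments cannot be assigned with certainty. *Col7a1*, the anchoring fibril chain of skin, was at or below 0.679 FPKM. Over the 7 tested network chains the median log2 fold change was -0.26, and it was -0.95 without WT library 0 and -0.94 without KO library 2.

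Promoter sequence is shown for *Col6a2* and *Col8a1*, the network chains with differences in opposite directions, as the 250 bases before the RefSeq gene start on GRCm38.p6. Both lie on the minus strand, and capitals mark matches to GGGCGG on either strand, where a match on the other strand reads CCGCCC. The window of *Col6a2* is chr10:76623631-76623880, and that of *Col8a1* is chr16:57754738-57754987.

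Col6a2: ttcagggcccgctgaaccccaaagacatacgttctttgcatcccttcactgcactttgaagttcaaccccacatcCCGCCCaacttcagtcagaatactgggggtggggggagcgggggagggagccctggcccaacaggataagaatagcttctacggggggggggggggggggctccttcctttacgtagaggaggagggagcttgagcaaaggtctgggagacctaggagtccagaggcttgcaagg

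Col8a1: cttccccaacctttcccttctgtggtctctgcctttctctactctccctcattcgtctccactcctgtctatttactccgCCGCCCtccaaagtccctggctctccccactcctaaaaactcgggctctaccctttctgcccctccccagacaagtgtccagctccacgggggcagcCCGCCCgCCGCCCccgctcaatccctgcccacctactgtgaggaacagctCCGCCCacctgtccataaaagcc

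The window of *Col6a2* held 1 match and that of *Col8a1* held 4, and neither held the box CCAAT, the box TATAAA, the site TGANTCA known from AP-1 factors, or a CArG box, the element bound by serum response factor. RefSeq windows were matched for 35 of the 44 chains, some of them away from the RefSeq gene start, by up to 3212 bases (*Col20a1*). GGGCGG was in 60.0% of the 35 collagen windows and in 33.0% of the windows of all 27025 genes. CCAAT was in 34.3% and 34.5%, TATAAA in 14.3% and 13%, TGANTCA in 2.86% and 6.85%, and the CArG box in 2.86% and 1.41%. All motifs were searched on both strands, and none of the marked matches overlapped a match to another motif. The 1 collagen window with TGANTCA was that of *Col6a1* and the 1 with a CArG box was that of *Col6a4*. The *Col6a1* window, chr10:76726045-76726294 on the minus strand, overlaps the GENCODE gene, whose start site is at 76726168. Its TGANTCA match lies within that annotated gene and not before it. *Col6a1* and *Col6a2* lie 85162 bases apart on chromosome 10, on the same strand.

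The transmembrane chains were low. *Col17a1*, the hemidesmosome collagen of epithelia, had 1.02, 0.492 and 3.8 FPKM in WT and 0.420, 0.301 and 0.130 FPKM in KO, without overlap (log2 fold change -1.91, SE 1.34, adjusted p = 0.698). Beside it, the summed FPKM of 10 epithelial markers was 67.2, 69.4 and 131 in WT and 74.9, 95.9 and 99.5 in KO, which overlapped. Of these markers, *Epcam*, *Krt5* and *Cldn6* were at or below 0.5 FPKM in every library, whereas *Krt8*, *Krt18*, *Krt19* and *Perp* were detected in every library, between 3.2 and 56.1 FPKM, with overlap. *Col25a1*, a chain needed for motor axons to enter muscle, had 1.32, 0.523 and 0.566 FPKM in WT and 2.03, 3.14 and 1.5 FPKM in KO, without overlap (log2 fold change 1.41, SE 0.86, adjusted p = 0.672). *Col23a1*, between 5.73 and 13.6 FPKM, and the untested *Col13a1*, at most 1.53 FPKM, overlapped.

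The 2 remaining chains both had a positive log2 fold change. *Col26a1* had 0.554, 4.07 and 0.597 FPKM in WT and 2.75, 6.92 and 11.5 FPKM in KO, which overlapped because WT library 1 was above KO library 0 (log2 fold change 2.31, SE 0.92, unadjusted p = 0.0375, adjusted p = 0.591). Its unadjusted p was under 0.05 in 10 of 16 alternative settings, and was 0.112, 0.0928, 0.111 and 0.151 without WT library 0, WT library 2, KO library 1 or KO library 2. *Col28a1*, which is known from the basement membranes of Schwann cells, lay between 0.675 and 3.65 FPKM and overlapped (log2 fold change 1.33). Beside these chains and *Col20a1* and *Col25a1*, nerve markers differed between the groups. The summed FPKM of 12 neuron markers was 25.8, 17.1 and 27.1 in WT and 62.8, 58.2 and 74.2 in KO, without overlap, and 8 of 8 tested had a log2 fold change above 0. The sum of 12 Schwann cell markers was 137, 113 and 132 in WT and 125, 210 and 296 in KO, which overlapped, with 10 of 12 above 0. The part of nerve markers in the values of these chains was not tested. The sums of endothelial, macrophage and erythroid markers overlapped, at 345 to 522, 40.8 to 159 and 3865 to 7588 FPKM in WT and 453 to 665, 32.4 to 119 and 4289 to 24370 FPKM in KO.

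The summed FPKM of the 44 chains differed more between libraries of a group than between the groups. It was 4663, 6256 and 7881 in WT and 3477, 6301 and 6211 in KO, with library 0 the lowest of each group. Of the 25 chains with a mean FPKM of at least 5, 16 had their lowest WT value in WT library 0 and 20 had their lowest KO value in KO library 0, and 14 had both. Only *Col4a5*, *Col12a1* and *Col24a1* had their highest KO value in KO library 0. The summed smooth muscle markers ran the other way, with the highest value of each group in library 0, 5855 FPKM in WT and 2439 FPKM in KO. The sum of 8 fibroblast markers was 860, 988 and 1337 FPKM in WT and 663, 1076 and 1124 FPKM in KO, which overlapped and was lowest in library 0 of each group. Its members did not run alike. The largest, *Dcn*, was also lowest in library 0, at 216 and 198 FPKM, whereas *Mfap4* was highest there, at 344 and 199 FPKM. Between the groups, *Lum* was higher and *Mfap4* and *Pi16* were lower in KO without overlap, and the other members overlapped. The part of either list in the collagen levels was not tested.

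As shares of the collagen transcripts, the classes were alike except for the network and FACIT chains and the small classes. The network share holds *Col6a1* and *Col6a2*, with *Col8a1* in the other direction, and the FACIT share holds *Col12a1*. These 2 shares thus include the differences of single chains given above and are no separate result about a class. The fibrillar share was 74.4% ± 2.32 in WT and 74.5% ± 3.76 in KO (SD, n = 3), and the basement membrane share was 8.62% ± 0.337 and 8.73% ± 0.592. The network share was 12.1%, 9.60% and 9.71% in WT and 8.80%, 8.39% and 6.73% in KO, without overlap, and the summed network FPKM, 564, 600 and 765 in WT and 306, 528 and 418 in KO, did not overlap either. The FACIT share was 6.80%, 6.65% and 5.26% in WT and 11.3%, 6.80% and 7.09% in KO, where the closest libraries of the groups were equal to the digits printed. The transmembrane share was 0.171% ± 0.0166 in WT and 0.247% ± 0.0197 in KO, and that of the 2 other chains was 0.0519% ± 0.0227 and 0.193% ± 0.0328, both without overlap. The summed transmembrane FPKM, however, overlapped, at 8.80, 9.74 and 13.3 in WT and 8.18, 14.9 and 16.8 in KO, as did the summed FACIT FPKM.

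**Figure D3:**
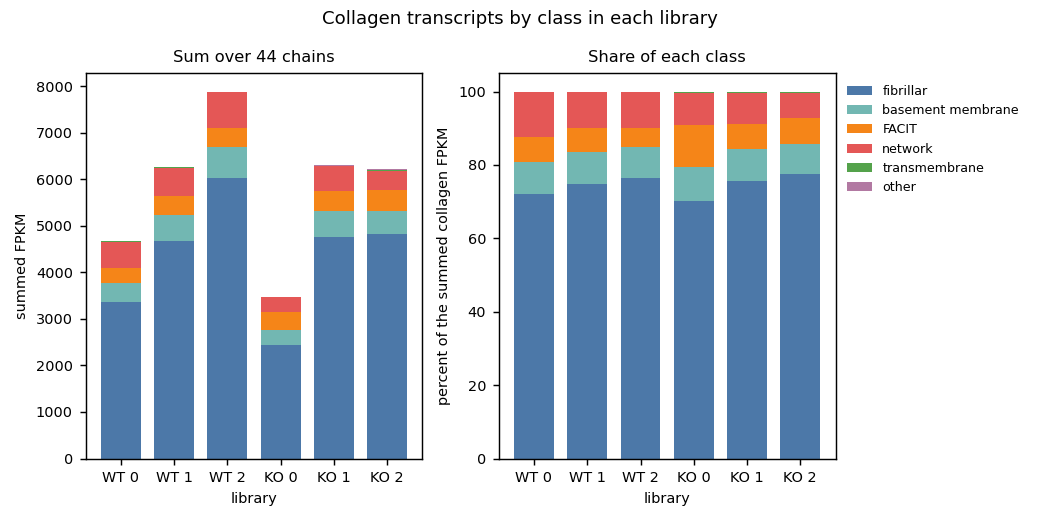
Summed FPKM of the collagen chains (left) and share of each class in percent of that sum (right), 1 bar for each library, stacked by class. KO library 0 has the shortest bar, 3477 FPKM, and the fibrillar class makes up 70.3% to 77.6% of every bar.

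Ratios of chains within a library do not depend on the scaling of that library. Of the 8 computed, those of *Col6a3* to *Col6a1* and of *Col12a1* to *Col14a1*, given above, did not overlap between the groups. Those of *Col5a1* to *Col5a2* and of *Col8a1* to *Col4a1* did not overlap either. Each of these ratios holds a chain whose own values did not overlap, so they include the differences given above and are no separate result. The ratio of *Col5a1* to *Col5a2* was 1.17, 2.04 and 1.23 in WT and 0.890, 0.827 and 1.01 in KO. The ratio of *Col8a1* to *Col4a1* was 0.0154, 0.0064 and 0.0065 in WT and 0.0563, 0.0489 and 0.0294 in KO. The ratios of *Col1a1* to *Col1a2*, between 1.46 and 1.84, and of *Col3a1* to *Col1a1*, between 0.642 and 1.03, overlapped.

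**Figure D4:**
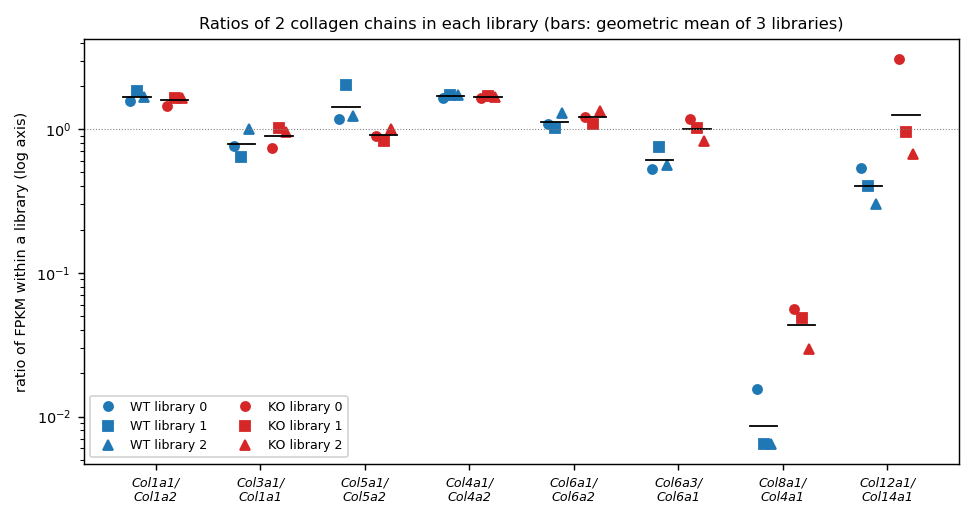
Ratio of the FPKM of 2 chains within each library, on a log axis, for 8 pairs, with circles, squares and triangles for libraries 0, 1 and 2, WT in blue and KO in red, and a bar at the geometric mean of each group. The ratio of Col4a1 to Col4a2 lies between 1.64 and 1.74 in all 6 libraries, and that of Col8a1 to Col4a1 is at or below 0.0154 in WT and at or above 0.0294 in KO.

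Collagen chains are modified, folded, trimmed and cross-linked by dedicated enzymes and chaperones, assembled with other matrix proteins, and bound by receptors on cells. Of 50 genes of these kinds in the table, 46 were tested, and limma called 0 at an adjusted p under 0.05. At an unadjusted p under 0.05 there were 7 (15.2%, beside 8.28% of all genes tested), 2 higher and 5 lower in KO. The KO values lay beyond all WT values in 11 (23.9%, beside 16.1% of all genes tested), 2 higher and 9 lower. The median log2 fold change was -0.07.

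The smallest p values were those of an enzyme that trims fibrillar chains and one that cross-links them. *Adamts2*, the protease that removes the N-terminal propeptide of types I, II and III, had 83.7, 82.8 and 66.3 FPKM in WT and 37.9, 35.2 and 32.9 FPKM in KO (log2 fold change -1.13, SE 0.17, unadjusted p = 0.000202, adjusted p = 0.238). *Loxl1*, a lysyl oxidase that also cross-links elastin, had 99.5, 103 and 76.4 FPKM in WT and 46.1, 49.0 and 47.6 FPKM in KO (log2 fold change -0.95, SE 0.17, unadjusted p = 0.000635, adjusted p = 0.332). In both genes the 3 KO libraries lay close together, and the log2 fold changes stayed within -1.24 to -1.07 and -1.09 to -0.87 when each library was left out.

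Of the other members of these lists, *Pcolce2* did not overlap between the groups, whereas *Lox*, *Loxl2* and *Pcolce* did. *Lox*, the main lysyl oxidase of the wall, had 203, 184 and 153 FPKM in WT and 156, 160 and 150 FPKM in KO (log2 fold change -0.20, SE 0.16), and *Loxl2* had a log2 fold change of -0.06. Of the propeptide enhancers, *Pcolce* had a log2 fold change of -0.08. *Pcolce2* had 4.26, 3.73 and 13.7 FPKM in WT and 2.76, 0.812 and 1.53 FPKM in KO (log2 fold change -1.92, SE 0.72, unadjusted p = 0.0300, adjusted p = 0.584). The unadjusted p of *Pcolce2* was under 0.05 in 11 of 16 alternative settings. Of the 7 tested propeptide genes 2 were lower at an unadjusted p under 0.05, and of the 5 cross-linking genes 1 was. The share of all genes tested that were lower at that limit was 4.97%.

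Among the enzymes that modify chains in the endoplasmic reticulum, both directions occurred. *Plod2*, the lysyl hydroxylase that acts on the telopeptides and so sets the kind of cross-link, had 75.8, 64.3 and 51.9 FPKM in WT and 91.6, 88.1 and 93.4 FPKM in KO (log2 fold change 0.52, SE 0.18, unadjusted p = 0.0207, adjusted p = 0.552). *P4ha1*, a catalytic subunit of prolyl 4-hydroxylase, had 37.0, 41.1 and 27.1 FPKM in WT and 43.1, 48.1 and 58.0 FPKM in KO (log2 fold change 0.51, SE 0.22, unadjusted p = 0.0483, adjusted p = 0.600). *P4hb*, its other subunit and a disulfide isomerase, had 477, 415 and 513 FPKM in WT and 308, 375 and 382 FPKM in KO (log2 fold change -0.40, SE 0.18, adjusted p = 0.609). *Ppib*, a prolyl isomerase, had 206, 166 and 190 FPKM in WT and 133, 158 and 162 FPKM in KO (log2 fold change -0.31, SE 0.16). Neither *Plod2* nor *P4ha1* had an unadjusted p under 0.05 without KO library 2 or without the mean-variance trend. Of the 15 genes of this list, 8 had a log2 fold change above 0 and 7 below.

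Of the genes for folding and export, *Serpinh1*, the collagen chaperone, was the most abundant, with 887, 855 and 803 FPKM in WT and 657, 733 and 831 FPKM in KO (log2 fold change -0.20, SE 0.19). *Fkbp10* had a log2 fold change of 0.05. *Mia3*, the receptor that loads procollagen into large carriers, had 44.5, 40.8 and 42.1 FPKM in WT and 26.7, 35.2 and 36.6 FPKM in KO, without overlap (log2 fold change -0.38, SE 0.19, adjusted p = 0.624).

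In the basement membrane list, *Pxdn*, the peroxidase that links type IV molecules, had 101, 91.6 and 93.7 FPKM in WT and 66.0, 78.5 and 65.3 FPKM in KO (log2 fold change -0.45, SE 0.15, unadjusted p = 0.02, adjusted p = 0.552). *Sparc*, a collagen-binding protein with a mean of 1225 ± 175 FPKM in WT and 1122 ± 35.1 FPKM in KO (SD, n = 3), and *Nid1* overlapped. Of the receptors, *Mrc2*, which takes up collagen fragments, had 39.9, 47.9 and 35.6 FPKM in WT and 20.7, 25.2 and 34.0 FPKM in KO (log2 fold change -0.64, SE 0.24, unadjusted p = 0.0270, adjusted p = 0.574). *Ddr1*, a receptor tyrosine kinase for collagen, had 36.5, 37.9 and 34.7 FPKM in WT and 22.5, 28.7 and 30.1 FPKM in KO, without overlap (log2 fold change -0.43, SE 0.19, unadjusted p = 0.0512). *Itgb1*, the beta subunit of the collagen integrins, was level, at 413, 355 and 340 FPKM in WT and 400, 334 and 348 FPKM in KO. The unadjusted p was under 0.05 in 12 of 17 alternative settings for *Pxdn* and in 10 of 17 for *Mrc2*.

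**Figure D5:**
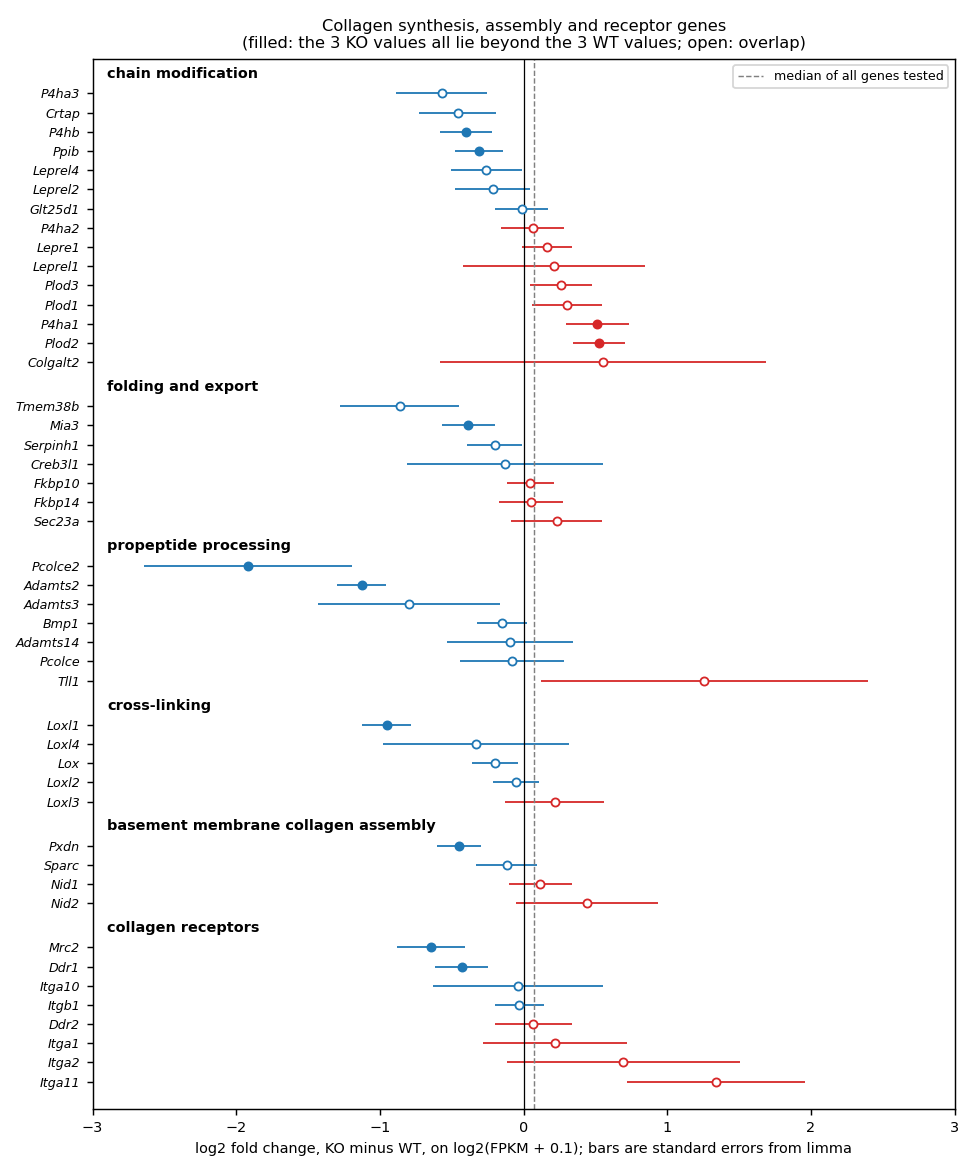
Log2 fold change (KO minus WT) of the 46 tested genes of collagen synthesis, assembly and binding, by list, with limma standard errors as bars, red above 0 and blue below 0, and filled symbols where all KO values lie beyond all WT values. Adamts2 at -1.13 and Loxl1 at -0.95 have short bars, 2 filled symbols lie on the right (Plod2 and P4ha1) and 9 on the left.

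Across the settings tried, including each omission of 1 library, the unadjusted p stayed under 0.05 for *Col6a1*, *Col6a2*, *Col8a1* and *Col12a1* and for *Adamts2* and *Loxl1*. Without WT library 1 and KO library 2, the libraries high in heart muscle transcripts, *Col12a1* had a log2 fold change of 1.37, *Col8a1* of 1.99, *Col6a1* of -1.07 and *Col6a2* of -1.03. Without the same libraries the unadjusted p was 0.117 for *Col5a1*, 0.108 for *Col24a1* and 0.0605 for *Col11a1*.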

How the data were processed

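RNA of DA from mouse embryos at E17.5 was sequenced in 3 WT and 3 KO libraries. The authors trimmed reads (base quality 30, length 45), used TopHat2 for alignment to mm10, and deposited 1 FPKM value per gene and library, computed by Cufflinks and Cuffdiff. Tool versions, annotation, strand, and scaling between libraries are not given in the sources used here. FPKM cannot be turned back into counts, so depth is unknown and no counting interval was computed.

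Groups and replicate numbers came from the sample titles, and 0 columns were left unmatched. From the deposited FPKM, log2(FPKM + 0.1) was computed, and the 12955 genes whose mean FPKM over the 6 libraries was 1 or more were fitted together with limma 3.58.1 in R 4.3.3 (lmFit, then eBayes with its trend option, two-sided tests, Benjamini-Hochberg adjustment over all genes tested, threshold 0.05). Cuffdiff, the authors' tool, needs aligned reads. The procedure was tested on simulated data. Sums, shares, and ratios carry no test. Alternatives were other pseudocounts, filters, scalings, and variance models, a replicate block, and the omission of each library. Leaving out WT library 1 and KO library 2, which were high in heart muscle markers, was an alternative added after the data were seen.

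Values in every library are given for chains whose mean FPKM was 20 or more, with an unadjusted p under 0.05 or with groups that do not overlap. Of the 50 pathway genes, those named met one of the last 2 criteria or were the 2 most abundant of their list, and *P3h1* to *P3h4*, *Colgalt1*, *Snorc*, and a few markers were matched through older symbols. The chains and all gene lists were chosen with earlier results of these data known. *Col21a1*, which the class list names, had no row of that symbol. Gene positions and coding sequence came from GENCODE vM21 on GRCm38, and promoter windows came from RefSeq on GRCm38.p6. Proteins were not used here, so unbroken runs of the helix repeat were read as glycine codons (GGN as the first codon of each triplet, in runs of at least 3 triplets).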

Additional observations from a re-analysis of the deposited data

How the results depend on the processing

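No chain and no pathway gene passed the adjusted threshold in any of the 17 alternatives, where the lowest adjusted p was 0.188 (*Adamts2*). Of 726 fold changes of the 43 named genes under the alternatives, 710 kept their direction and side of the threshold, and 10 genes turned in the other 16, none of them past the threshold. The filters, the variance models and the replicate block cannot change a fold change here. Under these alternatives the direction was kept by construction, so the count of 710 is no measure of robustness. Over all genes, 2 instead of 1 were called without the mean-variance trend, without moderation, and without WT library 1 and KO library 2 together, and 1 to 2 when 1 library was left out. The chains at an unadjusted p under 0.05 numbered 4 higher and 4 lower, against 6 higher without the trend, 6 lower with the replicate block, and 2 lower without WT library 1 and KO library 2 together, and 2 to 5 higher and 2 to 4 lower when 1 library was left out, with 2 higher without KO library 2 and 2 lower without WT library 1. The pathway genes numbered 2 higher, against 0 without the trend and 1 with a pseudocount of 1, without moderation, with the replicate block, and without WT library 1 and KO library 2 together, and 5 lower, against 3 with quantile normalization and 3 without the trend. Leaving out 1 library gave 0 to 3 higher, with 0 without KO library 2, and 3 to 5 lower. With quantile normalization, which moved the median of all genes from 0.07 to 0.01, the log2 fold change was 0.026 for *Pcolce*, 0.095 for *Loxl2*, and 0.17 for *Itgb1*. When 1 library was left out, fold changes ranged from -0.46 to 0.0054 for *Col1a2*, -0.43 to 0.31 for *Col3a1*, -0.0060 to 0.33 for *Col5a2*, -0.55 to 0.012 for *Col16a1*, -0.17 to 0.88 for *Col18a1*, -0.052 to 0.15 for *Fkbp10*, -0.34 to 0.25 for *Pcolce*, -0.15 to 0.028 for *Loxl2*, -0.0036 to 0.33 for *Nid1*, and -0.11 to 0.051 for *Itgb1*. The FACIT median was 0.59 with a minimum mean FPKM of 0.1, -0.27 with a minimum of 5, and -0.40 to 0.50 when 1 library was left out. The ranges were -0.95 to -0.056 for the network median and 0.050 to 0.67 for the transmembrane median. The median of the 2 other chains was 1.25 with a pseudocount of 1, and the log2 ratio of *Col6a3* to *Col6a1* was 1.01 higher in KO without WT library 1 and KO library 2 together, against 0.72. The cause of these shifts was not tested.

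The deviations of same-numbered libraries from their group means correlated at 0.12, -0.08, and -0.01 over genes, and those of the other pairs at -0.12 to 0.14. With 3 libraries per group, these values cannot decide whether the replicate numbers pair the libraries. With the replicate block, 1118 genes instead of 1073 had an unadjusted p under 0.05. The fold changes were as without it, which the balanced design fixes in advance. FPKM without counts limits what can be said of the low chains, where a value listed at 0 may be a failed estimate.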
